A study of Homo sapiens with 18 samples.

Results

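The 6 libraries titled replicate 3 were compared with the 12 libraries titled replicates 1 and 2, out of 18 RNA-seq libraries of THP-1 cells. THP-1, an established human monocytic leukaemia line, becomes macrophage-like under the phorbol ester PMA. Its cells had been given Siglec-5 (called S5 below), Siglec-14 (S14) or only the empty vector (EV), and every library came from cells treated with 100 nM PMA for 24 h. The cells were mock treated, for a time the labels do not give, or kept for 48 h in 50% conditioned medium (CM) from SW620 cells, which are an established line of colorectal cancer. Each of the 6 groups (EV mock, S5 mock, S14 mock, EV CM, S5 CM and S14 CM) therefore held 1 replicate 3 library and 2 others, chosen by the replicate number in the title. The labels do not say what a replicate number stands for, whether replicates were separate cultures, or whether a line was 1 clone. All differences below are replicate 3 against replicates 1 and 2 within groups.

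PMA stops most THP-1 cells from dividing, so transcripts of the cell cycle mark cells that still cycle or have left the block. Dense cultures use up oxygen and glucose. Low oxygen stabilises HIF-1, a transcription factor that turns on genes of glycolysis and angiogenesis, and sugar levels act on TXNIP and ARRDC genes through the factor MondoA. Shortage of amino acids acts through ATF4, the effector of the integrated stress response, on genes such as PSAT1, PHGDH and CHAC1.

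Replicate 3 libraries were deeper, at 22570000 to 26050000 counts (median 24550000), than the others at 14960000 to 22320000 (median 20690000; two-sided exact permutation test within groups, 729 arrangements, p = 0.00137, the smallest possible). Genes with at least 5 counts numbered 17690 to 18430 in replicate 3 and 17490 to 18690 elsewhere (exact permutation p = 0.759). SIGLEC14 stood at 503 to 926 CPM (counts scaled to a common library total, with TMM normalisation) in the 6 S14 libraries and at 13.0 to 44.1 CPM in the EV and S5 libraries, so no library went against its S14 label. Within S14 it was lowest in replicate 3, at 554 and 503 CPM against 706 to 926. Of the markers fixed for macrophages, CSF1R, ITGAM, TYROBP, FCER1G, CD14 and LYZ were present in every library, whereas CD68 stayed at 0.525 to 1.62 CPM. The labels do not state how reads in overlapping gene models were counted.

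Replicate number carried a large share of the variation. Of the sum of squares of log2 CPM over all tested genes, line took 46.7%, the replicate 3 difference common to all groups 25.2%, its part that differed by group 13.6%, medium 5.66% and the difference between replicates 1 and 2 5.12%. Of 17851 genes tested, 9578 (53.7%) were called by edgeR's quasi-likelihood test with group as covariate, at a Benjamini-Hochberg adjusted p under 0.05. Of these 4742 (26.6%) were higher in replicate 3 and 4836 (27.1%) lower, and 857 (4.8%) and 1288 (7.22%) differed at least 2-fold. In 2403 genes (13.5%) the replicate 3 library lay above both other libraries in all 6 groups, and in 2311 (12.9%) it lay below both. The median change over all genes was -0.01 on the log2 scale. Without all replicate 1 libraries 6182 genes were called, with 12 libraries in the fit. If a replicate number marks 1 shared culture or day, only 3 units stand behind these values and the smallest permutation p would be 0.333, so the p-values measure spread between these libraries, which may be technical. The replicate number and any difference in culture, day or library preparation that goes with it cannot be told apart.

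**Figure D1:**
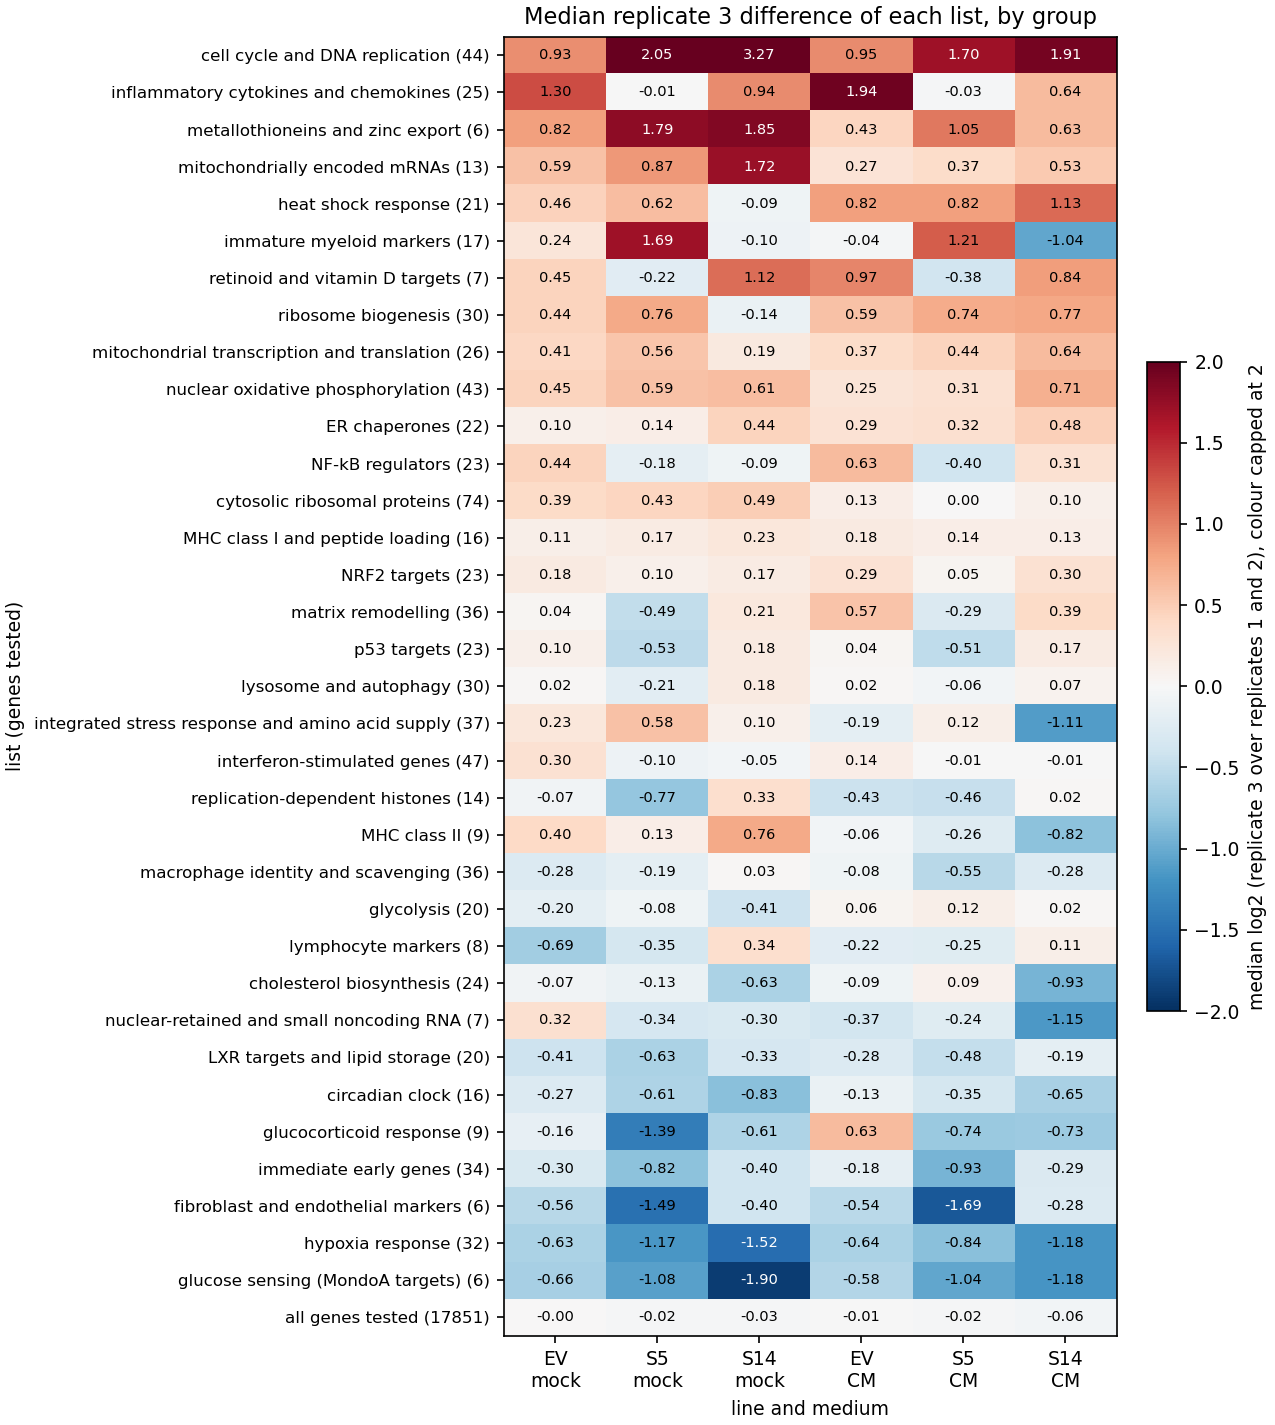
Median log2 difference of replicate 3 from replicates 1 and 2 over the tested members of each gene list with at least 6 of them, in each group (columns), with the number of genes tested in parentheses. The cell cycle list is positive (0.93 to 3.27) and the hypoxia list negative (-0.63 to -1.52) in all 6 groups, while the medians over all genes lie between -0.06 and 0.00.

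Of genes with a mean of at least 10 CPM in either set and replicate 3 outside both others in all 6 groups, the most raised was CCL2, the chemokine that draws monocytes. It stood at 3.68 CPM (lowest), 12.4 (median) and 47.8 (highest) in replicate 3, and at 0, 0.432 and 3.86 CPM in the other libraries. Replicate 3 was highest in every group, although across groups the S14 mock library of replicate 1 lay above the lowest replicate 3 library, S5 CM. The rise was 25.2-fold (edgeR log2 fold change 4.65 ± 0.20 SE, adjusted p = 1.19e-10). CCL2 lies at chr17:34255218-34257203 on the plus strand (GRCh38).

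MMP9, the gelatinase of macrophages, had 983 CPM (lowest), 2426 (median) and 7118 (highest) in replicate 3, against 180, 356 and 729 CPM elsewhere. The ranges did not overlap, and the S14 libraries of replicate 3 were the highest at 7118 and 6964 CPM. MMP9 rose 7.15-fold (log2 fold change 2.84 ± 0.16, edgeR adjusted p = 4.53e-09). TDO2, which breaks down tryptophan, rose 7.36-fold (log2 2.88 ± 0.28). S100A9, a calcium-binding subunit of calprotectin, rose 5.18-fold (2.37 ± 0.23). SCG5, a chaperone of secretory granules, rose 8.25-fold (3.04 ± 0.34), reaching 69.8 and 52.1 CPM in the S14 libraries of replicate 3 but only 0.523 to 5.07 CPM in those of EV and S5.

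By the same rule the most reduced gene was SULF2, which trims sulphate groups from heparan sulphate. It stood at 0.348 CPM (lowest), 1.12 (median) and 4.01 (highest) in replicate 3, against 31.5, 56.7 and 123 CPM elsewhere. The ranges were far apart in every line and medium. SULF2 fell 36.8-fold (log2 fold change -5.20 ± 0.28, edgeR adjusted p = 6.72e-09). It lies on chromosome 20 and overlaps the opposite-strand gene NCOA3 in GENCODE 29.

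Of the other most reduced genes, PNCK (a calmodulin-dependent kinase) fell 23.6-fold, TPSB2 (a tryptase) 14.2-fold, DLX3 (a homeobox factor) 9.43-fold and SLC6A8 (the creatine transporter) 7.98-fold. PNCK and SLC6A8 overlap on opposite strands, so their reads may be shared. HIF1A-AS3, an antisense RNA within HIF1A, fell 27.6-fold. HSPA7, a heat shock pseudogene, fell 17.6-fold. FCGR2B and FCGR2C, near-identical low-affinity receptors for immunoglobulin G whose reads the counting could split, fell 14.2-fold and 16.8-fold.

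**Figure D2:**
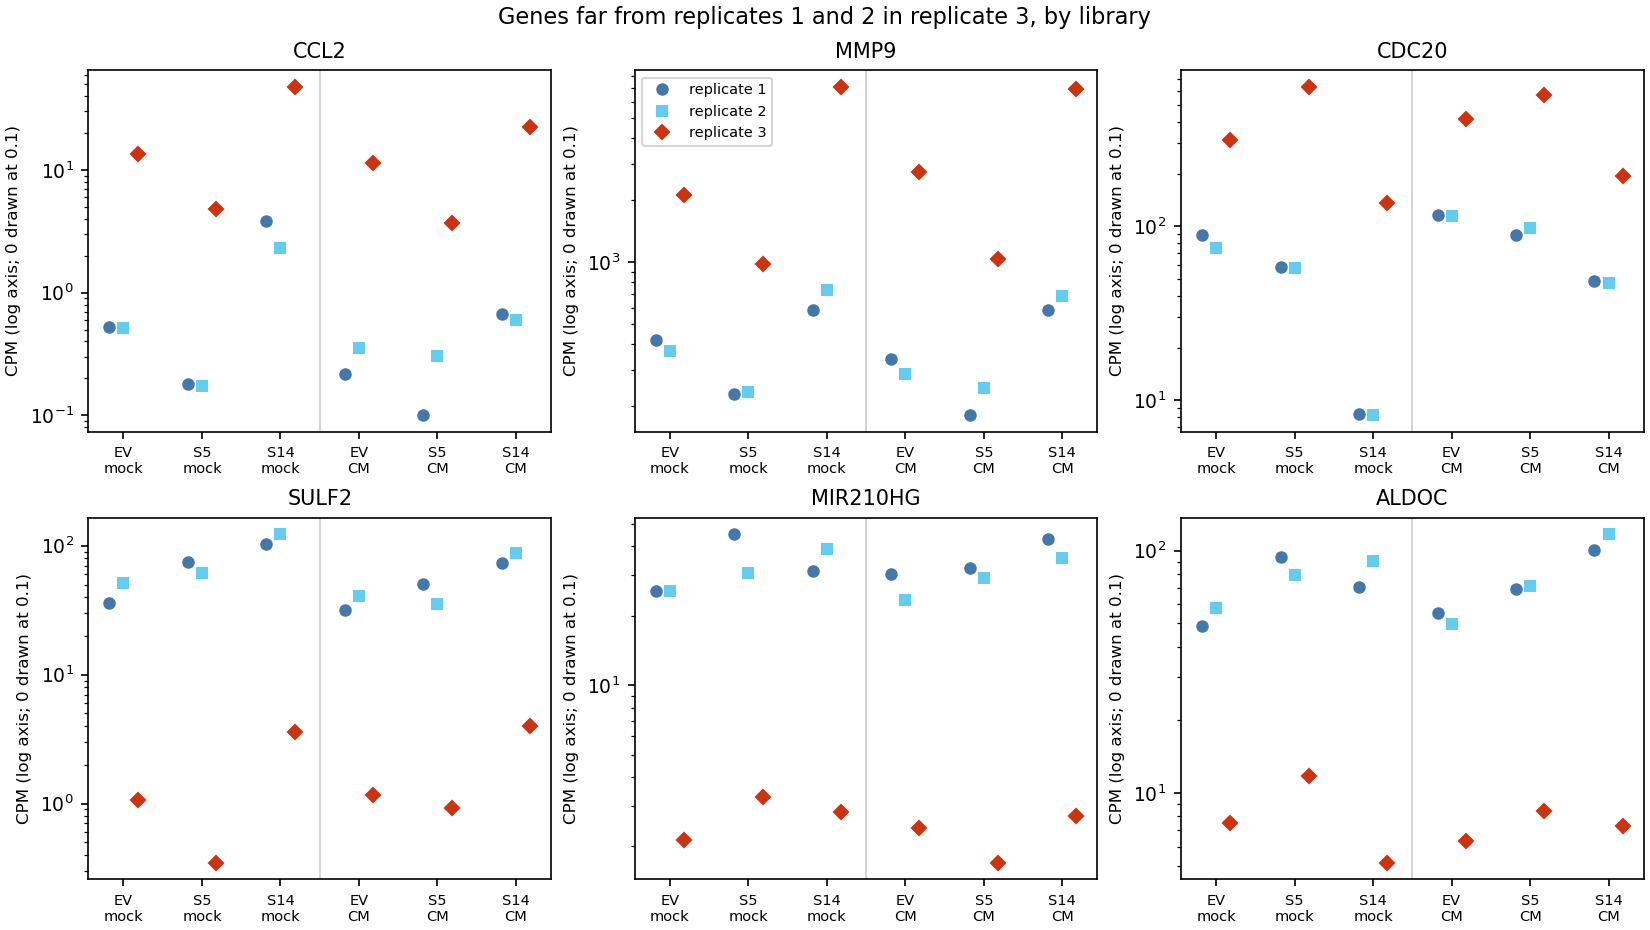
CPM on a log axis of 6 genes in each of the 18 libraries, by line and medium, with replicates marked by colour and shape and a count of 0 drawn at 0.1. In each panel the replicate 3 library of every group lies on 1 side of both others, above for CCL2, MMP9 and CDC20 and below for SULF2, MIR210HG and ALDOC. The rule that chose these genes required this.

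The hypoxia response list was lower in replicate 3, by its median, in every group. Of 32 tested members of the hypoxia response list, 26 fell and 0 rose, where 27.1% of all genes fell, and in 17 replicate 3 lay below both other libraries in all 6 groups, as in 12.9% of all genes. Their median change was -0.98 on the log2 scale, against -0.01 over all genes. Summed levels of lists are given here and below per library total without TMM scaling, unlike the CPM of single genes. The summed level of the hypoxia list was 762 CPM (lowest), 822 (median) and 1502 (highest) in replicate 3, and 1326, 1630 and 4427 CPM in the others. The S14 libraries were the highest of both sets, so the ranges overlapped across lines but not within any group.

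MIR210HG, which is in no list, is the host transcript of the hypoxia-induced microRNA miR-210. It had 1.70 CPM (lowest), 2.56 (median) and 3.27 (highest) in replicate 3, against 23.4, 30.9 and 45.3 CPM. All 12 other libraries lay far above all 6 of replicate 3. It fell 13.0-fold (log2 -3.70 ± 0.13, edgeR adjusted p = 1.52e-11). ALDOC, a glycolytic aldolase induced by low oxygen and counted in the glycolysis list, had 5.16 CPM (lowest), 7.39 (median) and 11.8 (highest) against 48.7, 71.3 and 117 CPM, again without overlap. It fell 9.53-fold (-3.25 ± 0.15, edgeR adjusted p = 6.02e-10).

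Within the hypoxia list, EGLN3, an oxygen sensor that marks HIF for breakdown, was at 0 to 0.535 CPM in replicate 3 and at 1.72 to 25.5 CPM elsewhere. ZNF395 fell by 2.19, SLC2A3 (a glucose transporter) by 2.15, HK2 (hexokinase) by 1.65, BNIP3L (mitophagy) by 1.29, VEGFA (angiogenesis) by 1.21, KDM4B (a histone demethylase) by 1.16 and NDRG1 by 1.06 on the log2 scale. The 6 members not called were CA12, HILPDA, INSIG2, PFKFB3, ADORA2B and PFKFB4, with values between -0.30 and 0.12. Without the S14 line 20 hypoxia genes fell and 1 rose.

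The wider glycolysis list did not follow as a whole. Of 20 members 6 fell, 5 rose and 9 were not called, with a median of -0.12, near the 27.1% and 26.6% of all genes. GAPDH was at 1958 to 2552 CPM in replicate 3 and 2022 to 2718 elsewhere (log2 -0.03 ± 0.06). PGAM1, SLC16A1 (a lactate carrier), PFKM, HK1 and PKM rose by 0.28 to 0.90. ENO2, found mainly in neurons, fell by 1.99. Of 6 tested genes that respond to sugar through MondoA, 5 fell and 0 rose. TXNIP, a brake on glucose uptake, had 563 CPM (lowest), 825 (median) and 982 (highest) in replicate 3 against 1734, 2148 and 3696 CPM elsewhere, without overlap. It fell by 1.52 ± 0.15 (edgeR adjusted p = 7.73e-07). ARRDC2, ARRDC3 and KLF10 fell by 0.88, 1.11 and 1.25.

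The 250 bases before the start of MIR210HG and ALDOC are shown because both are known to respond to low oxygen and were among the most reduced genes. HIF binds sites with the core ACGTG, given in capitals on either strand (RefSeq, GRCh38.p14, both genes on the minus strand, chr11:568458-568707 and chr17:28576896-28577145).
MIR210HG: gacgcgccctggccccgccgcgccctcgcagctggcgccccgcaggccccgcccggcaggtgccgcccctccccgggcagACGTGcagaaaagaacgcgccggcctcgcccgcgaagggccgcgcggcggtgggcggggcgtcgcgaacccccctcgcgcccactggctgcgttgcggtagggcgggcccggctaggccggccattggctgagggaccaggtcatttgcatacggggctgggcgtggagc
ALDOC: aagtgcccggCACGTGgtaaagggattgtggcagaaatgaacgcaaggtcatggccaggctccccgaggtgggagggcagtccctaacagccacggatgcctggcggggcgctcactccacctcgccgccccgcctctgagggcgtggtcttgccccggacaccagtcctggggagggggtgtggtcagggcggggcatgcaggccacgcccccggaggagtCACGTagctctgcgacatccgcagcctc
MIR210HG held 1 match and ALDOC 3, of which a pair overlap in the palindrome CACGTG. On this window, 13 of 25 hypoxia genes with a promoter entry (52.0%), 8 of 19 glycolysis genes (42.1%) and 5101 of all 27305 promoters (18.7%) held the letters. So did 22.8% of the promoters of genes tested and 10 of 33 cell cycle genes (30.3%), a list that moved the other way. The match is a description of the sequence only.

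The cell cycle list was higher in replicate 3, by its median, in every group. Of 44 tested members 42 rose, where 26.6% of all genes rose, 1 fell (CCND2) and 1 was not called (CCND1, 0.05 ± 0.21). The median change was 1.94, and in 39 members replicate 3 lay above both other libraries in all 6 groups, against 13.5% of all genes. Their summed level was 3006 CPM (lowest), 4108 (median) and 6301 (highest) in replicate 3, against 732, 1940 and 2619 CPM elsewhere. The highest replicate 1 or 2 library thus lay below the lowest of replicate 3.

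CDC20, which switches on the anaphase-promoting complex, had 136 CPM (lowest), 363 (median) and 636 (highest) in replicate 3 against 8.19, 66.6 and 117 CPM, without overlap. It rose 6.47-fold (log2 2.69 ± 0.22, edgeR adjusted p = 4.76e-07). CDC20P1, a pseudogene of CDC20 that may take its reads, rose 5.81-fold. CCNB1, the cyclin of entry into mitosis, had 49.6 to 132 CPM in replicate 3 and 4.69 to 31.3 CPM elsewhere, and rose 5.56-fold (2.47 ± 0.16). BIRC5 (survivin) rose 6.07-fold, CDKN3 5.57-fold, DLGAP5 (spindle assembly) 5.33-fold and KIF14 (a mitotic kinesin) 5.29-fold.

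Genes of DNA replication and of mitosis both rose. The helicase subunits MCM2 to MCM7 rose by 0.74 (MCM5) to 1.45 (MCM4), PCNA by 1.61 and MKI67, a marker of cycling cells, by 1.81. AURKA and PTTG1 of mitosis rose by 1.73 and 2.15. Of 14 tested replication-dependent histone genes, 3 rose and 4 fell, near the shares of all genes (26.6% and 27.1%).

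The 250 bases before the starts of CDC20 and CCNB1 are shown because mitotic genes moved together. Capitals mark CCAAT, bound by NF-Y, and TTTGAA, a form of the cell cycle homology region bound by the MuvB complex, on either strand (RefSeq, GRCh38.p14, plus strand, chr1:43358731-43358980 and chr5:69166900-69167149).
CDC20: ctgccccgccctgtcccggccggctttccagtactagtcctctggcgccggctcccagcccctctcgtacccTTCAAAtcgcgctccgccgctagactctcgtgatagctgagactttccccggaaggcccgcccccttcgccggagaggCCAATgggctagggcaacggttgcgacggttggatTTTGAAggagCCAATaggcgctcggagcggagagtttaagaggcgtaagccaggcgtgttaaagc
CCNB1: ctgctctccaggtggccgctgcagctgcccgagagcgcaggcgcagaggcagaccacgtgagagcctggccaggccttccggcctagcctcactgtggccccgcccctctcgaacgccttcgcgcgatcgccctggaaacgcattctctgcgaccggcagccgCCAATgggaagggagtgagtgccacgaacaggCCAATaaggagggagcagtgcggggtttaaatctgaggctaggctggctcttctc
CCAAT was found in 26 of 33 cell cycle genes with an entry (78.8%) and in 33.0% of all promoters. TTTGAA was found in 10 of 33 (30.3%) and in 13.6% of all promoters, with 2 matches in CDC20 and 0 in CCNB1. Among promoters of genes tested the shares were 34.5% for CCAAT and 8.89% for TTTGAA. CCNB1 also held 2 matches to ACGTG, left in lower case.

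**Figure D3:**
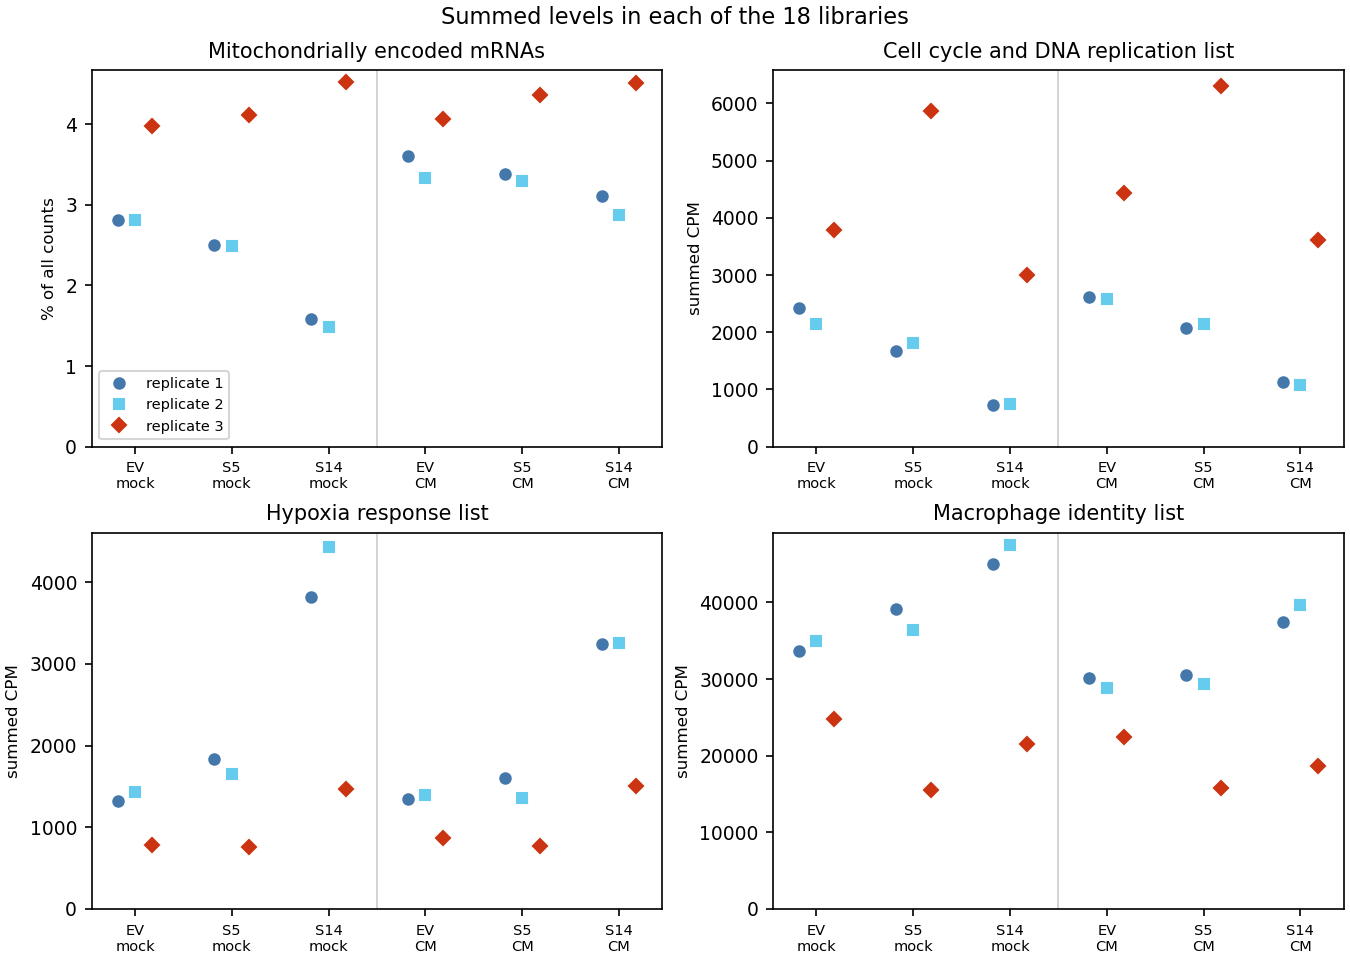
Share of counts from mitochondrially encoded mRNAs and summed CPM (without TMM scaling) of the cell cycle, hypoxia and macrophage identity lists in each library, by line and medium, with replicates marked by colour and shape. Replicate 3 is above both others in every group for the mitochondrial share and the cell cycle list, and below both for the hypoxia and macrophage lists. The macrophage sum is weighted by abundant members such as SPP1, and the median change of that list was -0.07.

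The mRNAs encoded in mitochondria were higher in replicate 3. The 13 mRNAs encoded in mitochondria made up 3.97% (lowest), 4.24% (median) and 4.52% (highest) of counts in replicate 3, and 1.49%, 2.84% and 3.60% in the other libraries, without overlap. The mean difference within groups was 1.48 percentage points (two-sided exact permutation p = 0.00137, the smallest that 729 arrangements allow). In mock medium it was 1.17 points for EV, 1.62 for S5 and 2.98 for S14, and in conditioned medium 0.596 for EV, 1.02 for S5 and 1.52 for S14. All 13 mRNAs rose, by 0.44 (MT-ND5) to 1.28 (MT-ND6, the light-strand gene), where 26.6% of all genes rose. In 11 of them replicate 3 was highest in all 6 groups, against 13.5% of all genes. The heavy-strand mRNAs MT-CO1, MT-CO2 and MT-CO3 of cytochrome oxidase rose by 0.62, 0.71 and 0.92. The mitochondrial ribosomal RNA MT-RNR1 was not called (0.49 ± 0.33, edgeR adjusted p = 0.234). In conditioned medium its replicate 3 library lay below both others in all 3 lines, and in mock medium above both. Replicate 3 was also deeper by the totals given before, and the part of depth in the share was not tested; with every library thinned to 14962531 counts, 9025 genes were called in place of 9578.

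Nuclear genes of the same organelle rose too. Of 43 tested oxidative phosphorylation genes 38 rose and 0 fell (median 0.48), where 26.6% of all genes rose and 27.1% fell. UQCRQ of complex III rose by 1.06, ATP5MC1 of ATP synthase by 0.89 and COX5A by 0.71. Of 26 genes of mitochondrial transcription and translation 20 rose and 0 fell, with TFAM, which packages mitochondrial DNA, up by 0.69 ± 0.07. Ribosome biogenesis rose in 26 of 30 genes and fell in 1, with NOP16 up by 0.97 and NOLC1 by 0.88. Its median difference was -0.14 in S14 mock. In S14 the difference was lower for 16 of the 30 and higher for 0, against 18.0% and 16.4% of all genes. Of 74 cytosolic ribosomal protein genes 46 rose and 0 fell, by smaller amounts (median 0.26). Their median difference was 0.39 to 0.49 in the mock groups and 0.00 to 0.13 in the conditioned medium groups. In 11 of the 74 replicate 3 lay above both others in all 6 groups, as in 13.5% of all genes. Without all replicate 1 libraries 20 of them rose.

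Heat shock genes rose in 16 of 21 and fell in 1. Their median difference was -0.09 in S14 mock and 0.46 to 1.13 in the other groups. In S14 the difference was lower for 8 of them and higher for 1, against 18.0% and 16.4% of all genes. HSPE1 and HSPD1, partners in mitochondrial protein folding, rose by 1.27 and 1.00, and HSPA8 rose by 0.86 to reach 2376 to 3303 CPM. All 6 tested metallothionein and zinc export genes rose (median 1.07), with MT2A at 13.4 CPM in the median replicate 3 library against 5.21. Of 22 chaperone genes of the endoplasmic reticulum 13 rose and 3 fell. Their median difference was 0.10 in EV mock, 0.14 in S5 mock and 0.29 to 0.48 in the other groups. Beside these lists, 26.6% of all genes rose and 27.1% fell.

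Macrophage genes moved both ways. Of 36 tested members of the identity and scavenging list, 15 fell, 7 rose and 14 were not called (median -0.07). Of all genes 27.1% fell and 26.6% rose, so the share of members that rose was below that of all genes. Replicate 3 lay above both others in all 6 groups in 0 members, and below both in 7, against 13.5% and 12.9% of all genes. The summed level was 15480 CPM (lowest), 20120 (median) and 24760 (highest) in replicate 3 against 28840, 35650 and 47530 CPM, so no replicate 3 library reached the others. Abundant members weigh most in this sum. SPP1 (osteopontin), the most abundant, had 1541 to 9603 CPM in replicate 3 and 9165 to 36610 CPM elsewhere. It fell by 1.72 ± 0.29 (edgeR adjusted p = 0.000212). The sum without SPP1 was not tested, so its gap does not stand for the list as a whole. By group the list's median difference ran from -0.55 (S5 CM) to 0.03 (S14 mock). AXL, a receptor for dying cells, fell by 1.76, FCGR2A by 1.31, GPNMB by 0.86, ITGAX by 0.82, ITGAM by 0.65 and CSF1R by 0.52. CD14 was at 0.30 ± 0.18 and TYROBP at 0.00 ± 0.08, neither called. LYZ (lysozyme) rose by 0.96, CD163 by 0.50 and MERTK by 0.45. Without all replicate 1 libraries, or all replicate 2 libraries, 0 members rose.

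Inflammatory cytokine genes rose in 15 of 25 tested and fell in 1, IL10, by 1.35 (median 1.17). CXCL1 rose by 2.21, CXCL6 by 2.84, EBI3 by 1.85, IL1B by 1.72 and CXCL8 by 1.20. In 5 of the 25 replicate 3 was highest in all 6 groups, against 13.5% of all genes. In the S5 line the list's median difference was -0.01 in mock and -0.03 in conditioned medium, against 1.30 and 1.94 in EV; that difference between the lines was not tested. Without the S14 line 8 rose and 2 fell. IRF7, the regulator of interferon genes, fell by 1.80, while of 47 interferon-stimulated genes 17 rose and 13 fell, where 26.6% and 27.1% of all genes did, with a median of 0.04 that turned to -0.01 under upper-quartile scaling.

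Markers of immature myeloid cells rose in 8 of 17 and fell in 1, where 26.6% of all genes rose and 27.1% fell. GFI1 rose by 1.03 and MYB, a factor of progenitor cells, by 1.17. Their summed level was 4732 and 4235 CPM in the S5 libraries of replicate 3 and 858 to 1901 CPM in its EV and S14 libraries, against 950 to 2100 CPM in the other 12 libraries. In bulk RNA more cells of a kind and more RNA per cell cannot be told apart.

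Immediate early genes fell in 18 of 34 and rose in 7. KLF2 was at 0.195 to 1.05 CPM in replicate 3 and 3.86 to 10.4 CPM elsewhere, and fell by 3.50. NR4A1 fell by 3.70 and EGR3 by 2.67, whereas FOSL1 rose by 1.15. Circadian clock genes fell in 13 of 16 and rose in 0, with DBP down (-1.14 ± 0.12) and PER1 down (-0.94 ± 0.16). In EV CM the PER1 difference was 0.00. In 6 of the 16 clock genes replicate 3 lay below both others in all 6 groups, against 12.9% of all genes. Without replicate 1, 7 clock genes fell, and without replicate 2, 8 fell. Without the S14 line 1 clock gene rose, as with DESeq2. Targets of LXR and genes of lipid storage fell in 11 of 20 and rose in 2, with ABCG1 (-1.70) and SCD (-1.34) among those that fell. Cholesterol synthesis genes fell in 13 of 24 and rose in 2, and without the S14 line 6 fell. In the matrix list 12 of 36 rose and 10 fell, shares near the 26.6% and 27.1% of all genes; MMP2 fell by 1.16. NEAT1, a nuclear RNA, fell by 1.41 and MALAT1, another, was not called (-2.08 ± 0.91). MALAT1 differed widely between replicates 1 and 2, at 772 and 7189 CPM in S5 mock and 3296 and 7975 CPM in EV CM. It had 2658 and 12120 CPM in S5 CM and 12850 and 4197 CPM in S14 CM. In these groups NEAT1 was higher in the same library, at 448 and 697, 468.5 and 746, 514 and 984, and 1296 and 738 CPM. So was MT-RNR1, at 488 and 752, 789 and 988, 830 and 1990, and 1230 and 704 CPM. The part of this in other results was not tested.

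The size of the replicate 3 difference was not the same in all groups. By edgeR's F test over the 6 differences it differed in 8155 genes (45.7%), and in 4630 of the 9578 called genes. Without the S14 line it differed in 2848 genes. Each group has 1 replicate 3 library, so the spread in this test is that between replicates 1 and 2 alone. Contrasted with EV and S5, the S14 line differed in 6149 genes (34.4%), in 2930 (16.4%) with the S14 difference higher and in 3219 (18.0%) lower. With upper-quartile scaling 57.9% of the S14 calls were higher, against 47.7% with TMM. In the median gene the size of the difference was 0.523 and 0.521 log2 in S14 mock and S14 CM, 0.492 and 0.425 in S5, and 0.360 and 0.354 in EV.

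By the contrast with the mean of EV and S5, most cell cycle and hypoxia genes had a larger difference in S14, although EV and S5 were not alike. Of the cell cycle list 36 of 44 had a higher difference in S14 and 0 a lower one, against 16.4% and 18.0% of all genes. In S14 mock their summed level was 732 and 742 CPM in replicates 1 and 2 and 3006 CPM in replicate 3, against 2417, 2153 and 3784 CPM in EV mock and 1672, 1804 and 5865 CPM in S5 mock. In absolute CPM the gap was thus widest in S5, and the list's median log2 difference was 2.05 in S5 mock against 1.91 in S14 CM. Replicates 1 and 2 of S14 were the lowest of all libraries. Of the hypoxia list 19 of 32 had a lower difference in S14 and 1 a higher one, against 18.0% and 16.4% of all genes. Its summed level in S14 mock was 3826 and 4427 CPM in replicates 1 and 2 and 1470 CPM in replicate 3, against 1326, 1427 and 778 CPM in EV mock and 1832, 1653 and 762 CPM in S5 mock. The median difference of the hypoxia list was -1.17 in S5 mock and -1.18 in S14 CM. The S14 library of replicate 3 was thus close to the EV libraries of replicates 1 and 2 in hypoxia level, and for the cell cycle it was the lowest mock library of replicate 3.

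**Figure D4:**
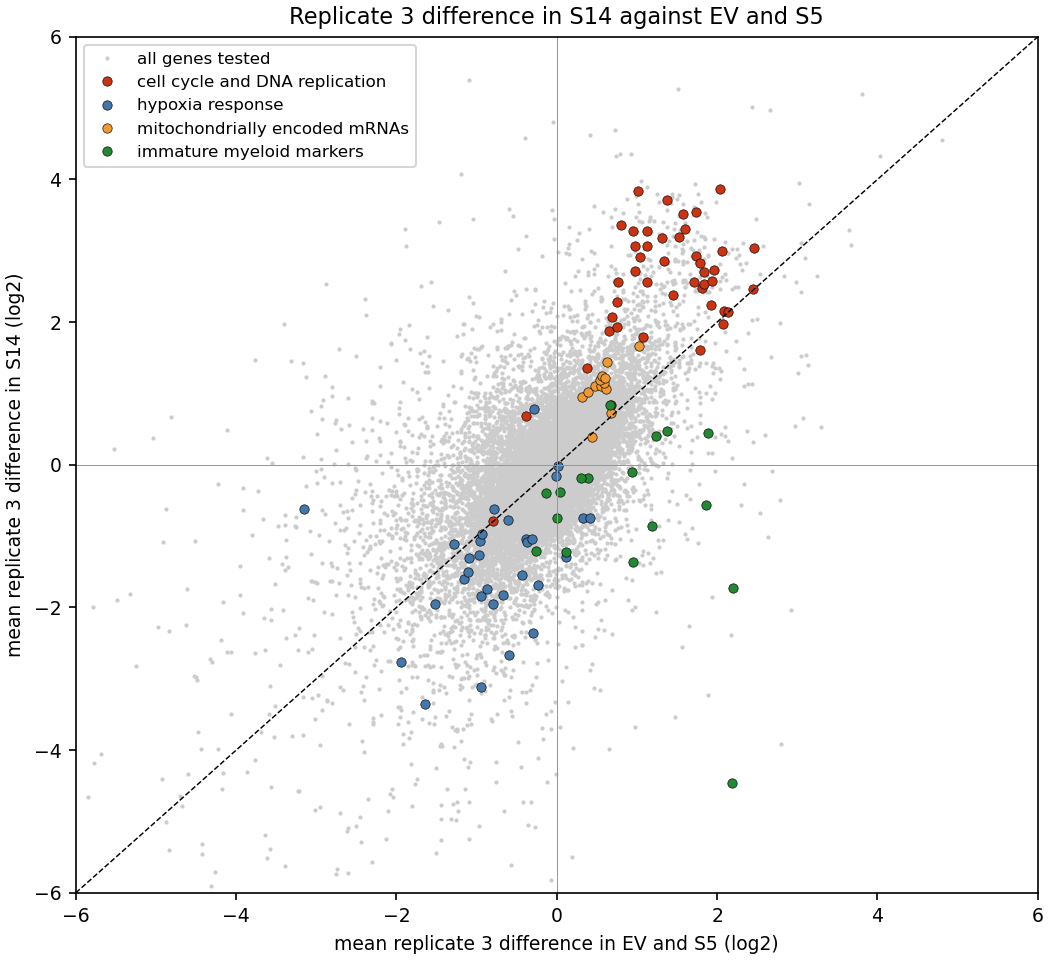
Mean log2 difference of replicate 3 in the S14 groups against that in the EV and S5 groups for each tested gene (grey), with 4 lists coloured and the dashed line marking equal differences; 15 genes lie outside the axes. Most cell cycle genes lie above the line, most hypoxia genes below it, and immature myeloid markers to its right.

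Some genes moved in opposite directions. The S14 contrast called 6149 of 17851 genes tested. In 384 of the 6149 the difference was positive in both S14 groups and negative in every EV and S5 group. In 385 of them it was the reverse. PRTN3 (proteinase 3), an enzyme of early myeloid granules, had 550 and 416 CPM in the S5 libraries of replicate 3 against 47.4 to 59.1 CPM in replicates 1 and 2. In S14 it had 4.48 and 5.19 CPM in replicate 3 against 11.7 to 23.0 CPM. The S14 contrast was -3.93 ± 0.14 (edgeR adjusted p = 9.89e-16). CCR2, the receptor of CCL2, had 176 and 209 CPM in S5 replicate 3 and 1.17 and 2.49 CPM in S14 replicate 3 (contrast -2.57 ± 0.18). Of immature myeloid markers, 13 of 17 had a lower difference in S14 and 0 a higher one, against 18.0% and 16.4% of all genes.

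VCAN, a matrix proteoglycan, was at 2.48 and 2.66 CPM in S14 replicate 3 against 37.5 to 89.2 CPM in S14 replicates 1 and 2 (contrast -3.18 ± 0.27). NPTX1, RASGRP2 and PADI2 had contrasts of -3.38, -2.85 and -2.66. In the other direction, ADRA2B, an adrenergic receptor, was at 7.47 to 41.1 CPM in S14 replicates 1 and 2 and at 57.2 and 84.3 CPM in replicate 3, while in EV and S5 it was at 2.09 to 7.26 CPM in replicate 3 and 10.8 to 17.6 CPM elsewhere (contrast 3.80 ± 0.15). S100A16 (4.04), MIR503HG (3.02) and TMEM119 (2.98) had higher differences in S14. FA2H and TRIM54 were far higher in S14 than in EV and S5 in every replicate. In S14 FA2H was at 7.03, 6.49, 32.1 and 27.5 CPM in replicates 1 and 2 and at 11.5 and 23.5 CPM in replicate 3, while in EV and S5 it was at 0.101 to 1.54 and at 0 to 0.0387 CPM. TRIM54 was at 11.7 to 29.1 CPM in S14 replicates 1 and 2 and at 54.8 and 59.1 CPM in replicate 3, against 0.0505 to 1.59 and 0 to 0.564 CPM in EV and S5.

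The replicate 3 difference also depended on the medium. Conditioned minus mock medium, it differed in 3129 genes (17.5%), 1532 higher (8.58%) and 1597 lower (8.95%). Without the S14 mock library of replicate 3 the count was 1396. Of 37 tested genes of amino acid supply and the integrated stress response, 33 had a lower difference in conditioned medium and 2 a higher one. Over all groups 4 of the 37 rose and 6 fell, where 26.6% and 27.1% of all genes did. Without the S14 line 13 rose and 3 fell. PSAT1, an enzyme of serine synthesis, had 15.9 and 11.5 CPM in S14 mock and 305 and 339 CPM in S14 CM in replicates 1 and 2. In replicate 3 it had 40.4 CPM in S14 mock and 54.1 CPM in S14 CM. The contrast was -2.61 ± 0.29 (edgeR adjusted p = 0.00131).

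CHAC1, which breaks down glutathione under ATF4, had 1.32 and 1.44 CPM in S14 mock and 59.6 and 47.3 CPM in S14 CM in replicates 1 and 2, against 5.26 and 8.60 CPM in replicate 3 (contrast -2.97 ± 0.18, edgeR adjusted p = 2.59e-10). PHGDH had a contrast of -2.15 ± 0.16. The median of log2 CM over mock (CPM + 0.5) over the 37 genes was 0.41 in EV, 0.49 in S5 and 1.45 in S14 in replicates 1 and 2. In replicate 3 it was -0.01, -0.08 and 0.13. Conditioned medium therefore went with higher levels in 33 or 34 of the 37 genes in each line in replicates 1 and 2, and in 18, 10 and 29 in replicate 3.

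**Figure D5:**
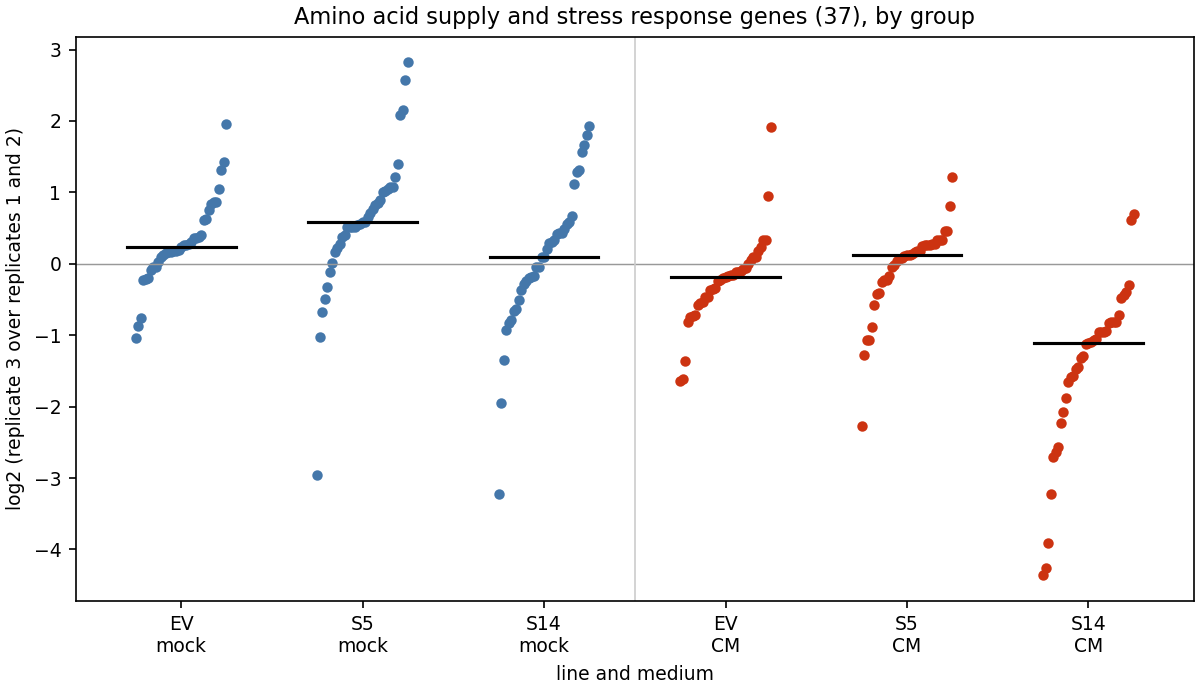
Log2 difference of replicate 3 from replicates 1 and 2 for each of the 37 genes of amino acid supply and stress response (points) with the median (bar), mock groups in blue and conditioned medium groups in red. The median runs from 0.10 to 0.58 in mock and from -1.11 (S14 CM) to 0.12 in conditioned medium.

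Other lists also differed by medium. All 13 mitochondrially encoded mRNAs had a lower difference in conditioned medium, as had 46 of 74 ribosomal protein genes, 28 of 44 cell cycle genes and 8 of 17 immature myeloid markers. The mitochondrial mRNAs were higher in conditioned than in mock medium in replicates 1 and 2 (median log2 0.31 in EV, 0.45 in S5 and 1.06 in S14). In replicate 3 the medians were -0.03, 0.00 and -0.08. Heat shock genes had a higher difference in conditioned medium in 16 of 21 and ribosome biogenesis genes in 20 of 30. Over all genes the difference was lower in conditioned medium in 8.95% and higher in 8.58%. FABP4, a fatty acid carrier, had 578 and 652 CPM in S14 mock and 102 and 100.1 CPM in S14 CM in replicates 1 and 2, against 521 and 469 CPM in replicate 3 (contrast 2.03 ± 0.14). FCGR3A (2.01), IL1R2 (2.06), P3H2 (2.24) and MMP7 (1.91) also had higher differences, and NLRP12 (-2.25) and MT-RNR1 (-1.95) lower ones. STC1 was at 0 in the S5 CM library of replicate 3.

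Of the markers of other cells, those of colorectal epithelium were low in both sets. Of 20 colorectal epithelial markers 3 could be tested, EPCAM, KRT19, KRT20 and CEACAM5 had no count in any library, and the summed level was 7.84 to 20.4 CPM in replicate 3 and 9.38 to 29.9 CPM elsewhere, and 2 of the 3 fell. Of 15 lymphocyte markers 8 were tested and CD3E had no count, with sums of 287 to 585 and 181 to 620 CPM, and 1 rose and 2 fell. Of 12 fibroblast and endothelial markers 6 were tested, with sums of 174 to 292 and 174 to 273 CPM, and 2 rose and 3 fell. Of all genes 26.6% rose and 27.1% fell, so counts in lists this small say little about such cells. PECAM1, an adhesion molecule that monocytes also carry, was the most abundant of them, at 156 to 285 TMM-scaled CPM over all libraries. The part of such cells in the results was not tested.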

How the data were processed

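RNA was sequenced as stranded mRNA libraries and aligned with HISAT2 to GRCh38, per the submitters' processing notes. The labels name neither the counting tool nor its strand setting. The authors deposited 1 table of 60623 genes with raw read counts and TPM values per library, per the file headers; TPM was not used for any test. The 18 libraries were grouped by the line, medium and replicate number in their titles. Gene IDs matched GENCODE 29 in 96.5% of genes. Genes with low counts were removed with edgeR's filter, counts were scaled by TMM, and edgeR 4.0.16 (R 4.3.3, quasi-likelihood, robust) was fitted with 6 groups and replicate 3, and with their interaction; p-values were adjusted over all genes tested by Benjamini-Hochberg (threshold 0.05). CPM of single genes is TMM-scaled; summed list levels are CPM of the library total without TMM. Differences per group are log2 fold changes fitted by edgeR in the model with the interaction, at its default prior count. Single values used exact permutation within groups (scipy 1.17.1).

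The members, gene lists and tests were chosen with earlier results of these data known. Up to 12 genes in each direction were named by fold change, with a mean of at least 10 CPM and replicate 3 outside both others in all 6 groups. Up to 6 genes in each direction were named for each contrast, and up to 4 per list by smallest p. Further list members were named after their values were seen.

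Same-numbered libraries deviated from their group means together (r of 0.191 to 0.846 over 45 pairs of groups). Since replicate 3 stands apart, centring alone gives replicates 1 and 2 a shared deviation. The difference between replicates 1 and 2 did not recur across groups (r of -0.196 to 0.213 over 15 pairs), so the numbers 1 and 2 were not shown to pair libraries, and the labels do not say what a number shares. No pair of libraries agreed within sampling noise (chi-square per degree of freedom of 3.84 or more), so all were counted separately. Total counts ran from 14960000 to 26050000, and intervals from the fits cover the spread between these libraries only. The scripts were tested on simulated data. Alternatives were DESeq2 1.42.0, RLE and upper-quartile scaling, no filter, mitochondrial genes left out, thinned counts, a replicate block, and leaving out libraries, replicates or lines.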

Additional observations from a re-analysis of the deposited data

Results flagged for a closer look

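The replicate 3 difference differed among the 6 groups in 8155 genes, between S14 and the other lines in 6149 and between media in 3129, each by a test of the difference itself (edgeR quasi-likelihood, Benjamini-Hochberg). Each group has 1 replicate 3 library, so these tests set a single library against the spread between replicates 1 and 2 alone (chi-square per degree of freedom 3.84 to 22.7, against 56.6 to 184 for pairs with replicate 3). The spread among replicate 3 libraries of 1 group was not measured, so these calls describe single libraries. The values below are differences of log2 fold changes with an adjusted p under 0.05.

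Between S14 and the mean of EV and S5, the difference was lower in S14 for PRTN3 (-3.93), NPTX1 (-3.38), VCAN (-3.18), RASGRP2 (-2.85), PADI2 (-2.66), CCR2 (-2.57), PNCK (-1.45) and ALDOC (-0.98). It was higher in S14 for FA2H (5.74), S100A16 (4.04), ADRA2B (3.80), TRIM54 (3.45), MIR503HG (3.02), TMEM119 (2.98), DLX3 (2.38), SCG5 (2.21), BIRC5 (1.83), HIF1A-AS3 (1.59), FCGR2B (1.52), MMP9 (0.97), CDKN3 (0.79), DLGAP5 (0.79) and CDC20 (0.58). FA2H and TRIM54 were at 0 in replicate 3 libraries, so their fitted values depend on the prior count.

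Between conditioned and mock medium, the difference was lower in conditioned medium for CHAC1 (-2.97), PSAT1 (-2.61), STC1 (-2.48), NLRP12 (-2.25), PHGDH (-2.15), MT-RNR1 (-1.95), CDC20P1 (-1.58), BIRC5 (-1.34), S100A9 (-1.21), KIF14 (-1.18), DLGAP5 (-1.05), CDC20 (-0.98), CDKN3 (-0.98) and CCNB1 (-0.92). It was higher for P3H2 (2.24), IL1R2 (2.06), FABP4 (2.03), FCGR3A (2.01), FCGR2C (1.99), MMP7 (1.91), HSPA7 (1.75), FCGR2B (1.26), SLC6A8 (0.69) and TDO2 (0.53). STC1 was at 0 in 1 replicate 3 library, so its value also depends on the prior count. MT-RNR1 differed widely between replicates 1 and 2, at 830 and 1990 CPM in S5 CM and 1230 and 704 CPM in S14 CM.

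For SULF2 the S5 mock group stood apart from the other groups, with a log2 difference of -7.60 against -5.52 to -4.33. It was the 1 group flagged by Dixon's criterion in 25 sets of 6 groups, where chance flags about 1 in 20.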

How the results depend on the processing

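The count of genes differing in replicate 3 was 9579 with RLE scaling, 9558 with upper-quartile scaling, 9869 without a filter, 9025 with thinned counts, 8933 without the S14 line and 9770 with DESeq2, against 9578. With the replicate block it was 9327, of which 9305 were shared in direction. It was 6182 without replicate 1, 6487 without replicate 2 and 6371 in conditioned medium alone (added later, with the data seen); these fits hold fewer libraries. Without the S14 line the count of genes differing among groups was 2848. Leaving out 1 library gave 8741 to 9682 genes differing in replicate 3, 5673 to 9550 differing among groups, 4447 to 6932 in the S14 contrast, 1396 to 4163 in the medium contrast, and 1.185 to 1.662 points of mitochondrial share. The lowest values other than 8741 came without the S14 mock library of replicate 3. Without the S14 line the mitochondrial share differed by 1.102 points (exact permutation p = 0.0123). No other alternative run moved one of these counts over all genes by over 1.5 times. Counts within lists moved more often, in 15 of 72 without the S14 line, 11 without a filter, 9 with upper-quartile scaling and 2 with the replicate block. Still more moved without all replicate 1 or all replicate 2 libraries. Without replicate 1, ribosomal protein genes called higher went from 46 to 20 and NF-kB regulators called higher from 11 to 2. Cholesterol synthesis genes called lower went from 13 to 4 without replicate 1 and to 8 without replicate 2. Upper-quartile scaling put 40.2% of medium calls higher, against 49% with TMM.

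Named genes reversed in fits of 1 line or medium, chosen after seeing the data. In EV alone TIPARP was at 0.10 and HLA-DMB at 0.0058. In S5 alone RASGRP2 was at 0.97, TRIM54 at -2.76, TMEM119 at -0.41, P3H2 at -0.56, HBEGF at -0.88, BIRC3 at -0.094 and NFKBIE at -0.18. In S14 alone PRTN3 was at -1.70, CCR2 at -1.69, S100A16 at 1.55, ADRA2B at 2.02, MIR503HG at 1.45, GPA33 at -1.01 and PECAM1 at -0.090. In mock medium alone FABP4 was at -0.25 and FCGR3A at -0.91. The cause was not tested. Genes near 1 CPM rest on few counts and are the least precise.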
